A study of Mus musculus with 27 samples.

Results

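Cathepsins are a group of proteases found mainly in the lysosome. A set of 10 cathepsin genes was followed here in microglia sorted from mouse brain: Ctsb, Ctsl, Ctss, Ctsc, Ctsh, Ctsz, Ctsf and Ctsk, which encode cysteine proteases, Ctsd, which encodes an aspartic protease, and Ctsa, which encodes a serine carboxypeptidase. They were chosen by name, with earlier results of these data known, and matched to the count table by Ensembl identifier, and all 10 were found among its 56691 genes. The study asked how gut microbes bear on microglia after a brain bleed. Wild-type mice were kept specific pathogen-free (SPF), were given a cocktail of antibiotics (ABX) or were germ-free (GF). Each received collagenase, which breaks down vessel walls and so causes an intracerebral hemorrhage (ICH), or PBS as the sham, and microglia were sorted from the tissue around the hematoma. Collagenase groups were taken at day 3 and day 7, and the sham groups are labelled day 7, so each comparison of day 3 with sham also differs in day. There were 3 libraries in each of 9 groups, 27 in all. The labels give no age, sex or strain beyond wild type, and they do not say whether the libraries of a group came from separate animals, so the p-values measure the spread between these libraries, which may be technical.

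Cathepsins are made as inactive proenzymes, carried to the endosome and lysosome mostly by mannose 6-phosphate receptors, and activated by cleavage at low pH. In microglia they degrade engulfed myelin, red cells and debris, and they trim the invariant chain and antigens for MHC class II. Cystatins inhibit the cysteine members, and the transcription factor TFEB and its relatives bind E-box-like sites in the promoters of many lysosomal genes.

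The promoters of 6 members that later results turn on are shown first: Ctsa, Ctsd and Ctsz, whose transcripts are the richest in GC of these 6, and Ctsl, Ctsc and Ctss. RefSeq windows from 250 bases before to 50 bases after an annotated start (GRCm38.p6) were found for 8 of the 10 members, with 2 windows for Ctsa. No window was matched for Ctsb or Ctsh. Each line reads 5′ to 3′ on the strand of the gene, and capitals mark CACGTG, the core of the E-box, searched on both strands, on which it reads the same. The windows are Ctsa (second start) at chr2:164833523-164833822 (plus strand), Ctsd at chr7:142387778-142388077 (minus strand), Ctsz at chr2:174438990-174439289 (minus strand), Ctsl at chr13:64370471-64370770 (minus strand), Ctsc at chr7:88277835-88278134 (plus strand) and Ctss at chr3:95526536-95526835 (plus strand).
Ctsa: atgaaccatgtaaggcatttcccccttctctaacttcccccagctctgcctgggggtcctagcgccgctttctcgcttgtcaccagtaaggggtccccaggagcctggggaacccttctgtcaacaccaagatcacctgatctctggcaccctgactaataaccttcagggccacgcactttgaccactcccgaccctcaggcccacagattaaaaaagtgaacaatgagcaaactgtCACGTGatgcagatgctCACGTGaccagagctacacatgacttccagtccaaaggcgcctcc
Ctsd: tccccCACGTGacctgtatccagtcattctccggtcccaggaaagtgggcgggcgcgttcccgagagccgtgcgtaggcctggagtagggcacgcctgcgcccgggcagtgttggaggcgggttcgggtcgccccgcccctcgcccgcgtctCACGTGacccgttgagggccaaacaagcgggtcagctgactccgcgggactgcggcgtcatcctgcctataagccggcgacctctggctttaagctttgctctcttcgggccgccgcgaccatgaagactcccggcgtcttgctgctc
Ctsz: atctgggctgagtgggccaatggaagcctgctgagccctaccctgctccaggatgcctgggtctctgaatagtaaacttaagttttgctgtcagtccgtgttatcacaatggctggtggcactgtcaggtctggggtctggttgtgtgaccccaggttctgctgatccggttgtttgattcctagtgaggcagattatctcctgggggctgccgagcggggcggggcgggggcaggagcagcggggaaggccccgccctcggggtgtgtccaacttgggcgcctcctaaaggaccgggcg
Ctsl: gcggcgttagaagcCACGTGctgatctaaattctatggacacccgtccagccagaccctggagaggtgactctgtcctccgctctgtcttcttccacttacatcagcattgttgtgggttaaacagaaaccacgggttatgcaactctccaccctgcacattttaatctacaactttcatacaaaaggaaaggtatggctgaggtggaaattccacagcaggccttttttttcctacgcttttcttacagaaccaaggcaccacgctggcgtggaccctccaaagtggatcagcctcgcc
Ctsc: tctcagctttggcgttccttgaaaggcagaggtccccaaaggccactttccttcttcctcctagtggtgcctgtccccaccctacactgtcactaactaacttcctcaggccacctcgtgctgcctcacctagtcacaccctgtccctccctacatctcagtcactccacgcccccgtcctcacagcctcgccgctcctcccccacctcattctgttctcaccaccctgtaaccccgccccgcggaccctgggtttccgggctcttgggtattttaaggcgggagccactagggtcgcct
Ctss: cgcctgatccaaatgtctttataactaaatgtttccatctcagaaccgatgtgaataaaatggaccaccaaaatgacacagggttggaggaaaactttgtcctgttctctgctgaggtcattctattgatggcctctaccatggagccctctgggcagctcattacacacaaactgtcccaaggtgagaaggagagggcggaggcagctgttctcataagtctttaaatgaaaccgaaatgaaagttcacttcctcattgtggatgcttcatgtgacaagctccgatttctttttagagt

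CACGTG was present in 4 members: with 2 copies in the second window of Ctsa, 2 copies in Ctsd, 1 in Ctsl and 1 in Ctsf. The first Ctsa copy starts 12 bases before the annotated start and the second lies after it, and those of Ctsd start 245 and 98 bases before it. The Ctsl copy starts 236 bases before and the Ctsf copy 79 bases before. The Ctsl window and the second Ctsa window, with their copies of CACGTG, lie inside the genes as placed by GENCODE M21 (chr13:64359337-64370890 and chr2:164832873-164841032). Their RefSeq starts are therefore downstream of the GENCODE start of the gene. The windows of Ctsz, Ctsc, Ctss and Ctsk and the first window of Ctsa do not hold these letters. Of all 32851 windows of 300 bases in the table, 7.15% hold CACGTG. The longer TCACGTGA, which contains it, is in 0.974% of windows, and both Ctsa copies and 1 of the Ctsd copies have this form. These matches describe the sequence alone, since binding was not measured. 

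Libraries held 41664864 to 79090595 counts each. Levels are CPM, counts scaled to a common library size, corrected by the trimmed mean of M-values (TMM), and n = 3 libraries for each mean ± SD. The number of genes detected averaged 9906 ± 997 in the GF libraries of ICH day 7 and 11801 ± 2135 in the ABX libraries of that day, and group means lay between 13553 and 16398 elsewhere. The contrast in level between the abundant genes of highest and of lowest GC content, a log2 difference centred over libraries, averaged -2.15 ± 0.62 for the GF, -0.84 ± 0.17 for the ABX and 0.24 ± 0.54 for the SPF libraries of ICH day 7. All 8 microglial markers had counts in every group, and their summed level ranged from 16117 CPM in ABX ICH day 3 to 104212 CPM in ABX ICH day 7. The lowest TMM factors were 0.476 in ABX ICH day 7 replicate 1 and 0.517 in GF sham replicate 1. A low factor raises every TMM-scaled level of its library. The summed level of 9 neutrophil markers was 817 to 3573 CPM in GF ICH day 7, with Mmp9 at 0, against 208 to 895 CPM in GF sham, with Ly6g and Mmp9 at 0, and 104 to 122 CPM in SPF ICH day 7, with Ltf and Ly6g at 0. The summed level of 6 monocyte markers was 481 to 1549 CPM in GF ICH day 7, 10.8 to 806 CPM in ABX ICH day 7 and 20.7 to 113 CPM in SPF ICH day 7, with no marker at 0 in these 3 groups. In libraries made from sorted cells, a different mix of cells and a different amount of RNA per cell cannot be told apart.

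As a family the cathepsins made up 4.33 ± 0.203% of all counts in SPF sham, 8.15 ± 0.0892% in SPF ICH day 3 and 7.46 ± 0.62% in SPF ICH day 7. The share was 4.68 ± 0.203%, 6.99 ± 1.63% and 6.16 ± 0.714% in the ABX groups in the same order. It was 5.56 ± 1.51%, 8.59 ± 1.08% and 4.89 ± 0.456% in the GF groups. The SPF day 3 and day 7 libraries all lay above the SPF sham libraries, the ABX shams lay below all 6 ABX hemorrhage libraries, and GF ICH day 7 lay within the range of GF sham.

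Per kilobase of transcript, Ctss led in SPF sham at 11322 ± 3292 CPM per kb, followed by Ctsd at 3621 ± 1596. Ctsz (1332 ± 300.2), Ctsb (1025 ± 149), Ctsh (977 ± 277) and Ctsl (971 ± 221 CPM per kb) came next and did not differ beyond their spread. Ctsa stood at 521 ± 180.4, Ctsc at 442 ± 167 and Ctsf at 116 ± 72.6 CPM per kb. In SPF ICH day 3 the first 2 places were taken by Ctsd at 12563 ± 1970.0 and Ctss at 8903 ± 1815 CPM per kb, with Ctsz at 3651 ± 815 and Ctsb at 3446 ± 342 behind them. In GF ICH day 7 the order was Ctss at 26281 ± 5615, Ctsl at 3653 ± 1289, Ctsd at 2883 ± 769 and Ctsc at 1395 ± 388 CPM per kb, and Ctsb, at 967 ± 233, stood below Ctsh and Ctsz in mean. Ctsd had the highest mean at day 3 in all 3 conditions, and Ctss in the other 6 groups. Ctsk was at the bottom in every group. Its counts were 0 in 23 of 27 libraries, and the other 4 held 1420 counts (SPF ICH day 7 replicate 3), 421 (ABX ICH day 7 replicate 3), 68 (ABX sham replicate 2) and 7 (ABX ICH day 3 replicate 1). Ctsk encodes the collagen-degrading protease of osteoclasts. Ctsk entered the tests with these counts and passed in no comparison, no fold change is given for it, and the medians below are over the other 9.

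**Figure D1:**
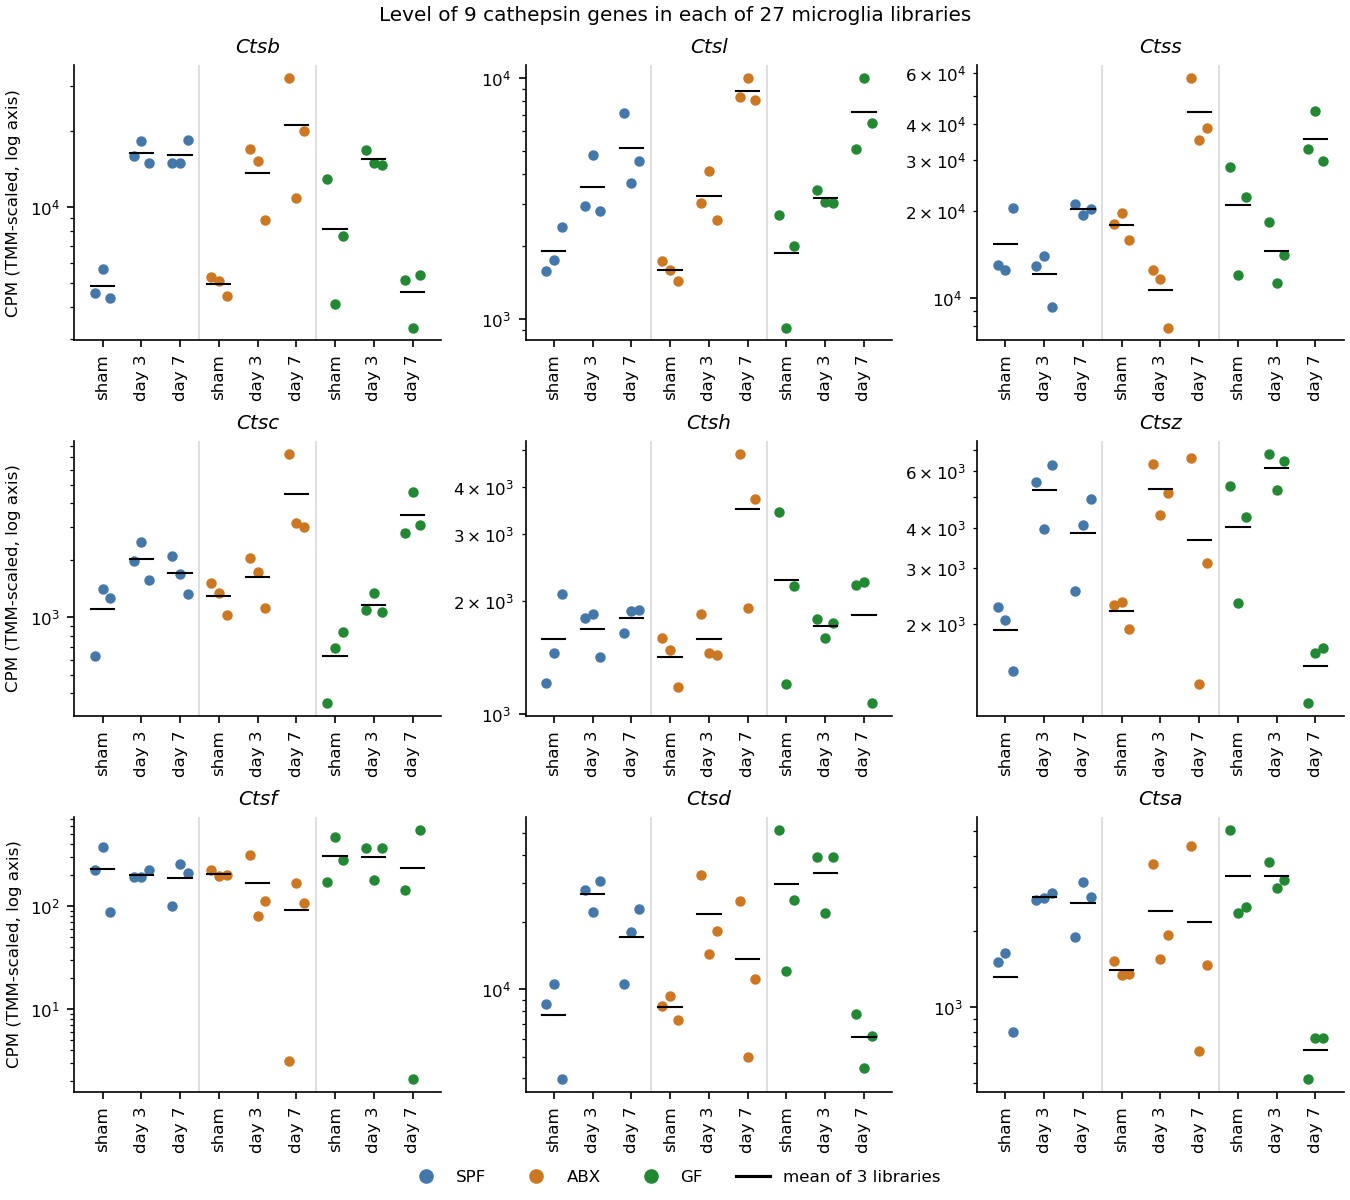
Level of 9 cathepsin genes in each library, as TMM-scaled CPM on a log axis, with one point a library, a bar at the mean of 3 libraries, and SPF, ABX and GF groups in blue, orange and green. Ctsb stands high after ICH in SPF and ABX microglia but lies between 3316 and 5337 CPM in GF ICH day 7, where Ctsa, Ctsd and Ctsz are also low and Ctss, Ctsl and Ctsc are not.

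Counts of members that passed the test, edgeR's quasi-likelihood test adjusted over all 17573 genes tested with a threshold of 0.05, are read against the share of all tested genes that passed. In SPF ICH day 3 against sham 1 of 10 passed, Ctsb, against 0.102% of all genes and 1.03% of the 1656 genes with a mean of at least 100 CPM. In SPF ICH day 7 against sham 1 of 10 passed, again Ctsb, against 0.0797% and 0.785%. In ABX ICH day 7 against sham 4 of 10 passed, all higher (Ctsb, Ctsl, Ctss and Ctsc), against 0.945% and 7.61%. In ABX day 7 against day 3 it was 2 of 10, Ctsl and Ctss, both higher, against 0.728% and 6.7%. With total-count scaling 1 was higher and 2 lower in that comparison, and the share of all genes under that scaling is not given. In GF ICH day 7 against sham 2 were higher (Ctsl and Ctsc) and 3 lower (Ctsz, Ctsd and Ctsa), against 14.4% and 24.3%. In GF day 7 against day 3 it was 3 higher (Ctsl, Ctss and Ctsc) and 4 lower (Ctsb, Ctsz, Ctsd and Ctsa), against 15.3% and 25.4%.

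At day 3, all 3 ICH libraries lay above all 3 shams for 6 of 10 members in SPF (Ctsb, Ctsl, Ctsc, Ctsz, Ctsd and Ctsa), against 9.18% of all genes, and for 5 in ABX (the same without Ctsc), against 10.2%. In GF it was 3 (Ctsb, Ctsl and Ctsc), against 10.8%. The median log2 fold change of 9 members was 0.88 in SPF, 0.77 in ABX and 0.16 in GF, where that of all genes was -0.07, 0 and 0.23. No member passed in ABX ICH day 3 against sham (edgeR; 0.125% of all genes), where DESeq2 called 0 and limma voom 2. An unadjusted p below 0.05 was found there for 5 members and for 1453 of all 17573 genes. None passed in GF ICH day 3 against sham (edgeR; 0.00569%), with 0 calls by DESeq2 and by voom. Below an unadjusted 0.05 were 3 members and 929 of all 17573 genes. Averaged over the 3 conditions, 4 of 10 were higher at day 3 than in sham (Ctsb, Ctsl, Ctsz and Ctsd; background 1.3%, and 6.4% of abundant genes). At day 7, 4 were higher than in sham (Ctsb, Ctsl, Ctss and Ctsc; 20.2% and 30.3%), and against day 3 it was 3 higher (Ctsl, Ctss and Ctsc) and 3 lower (Ctsz, Ctsd and Ctsa; 20.1% and 34.1%). Calls on abundant genes in general were common at day 7, and the counts of members there are to be read against that.

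**Figure D2:**
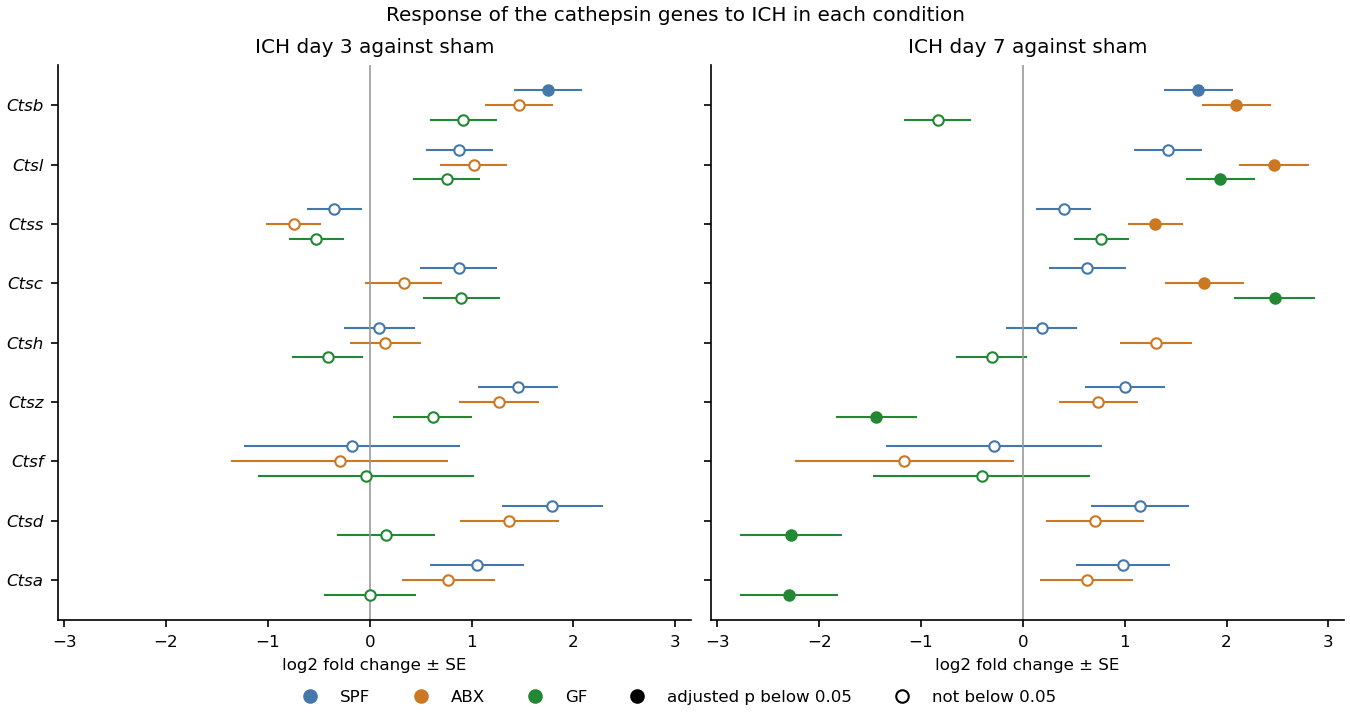
Log2 fold change ± SE of each member against the sham of its own condition, at day 3 (left) and day 7 (right), in SPF (blue), ABX (orange) and GF (green) microglia, with filled points for an adjusted p below 0.05. At day 7 the GF values of Ctsa, Ctsd, Ctsz and Ctsb lie below 0 while the SPF and ABX values of the same genes lie above it (with total-count scaling the ABX values of Ctsa, Ctsd and Ctsz turn negative), and Ctsc and Ctsl lie above 0 in each condition.

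Ctsb encodes cathepsin B, an endopeptidase that also removes dipeptides from the C-terminus, and is abundant in activated microglia. Its level was 4566, 5668 and 4345 CPM in SPF sham, 15944, 18127 and 14958 in SPF ICH day 3 and 14868, 14836 and 18432 in SPF ICH day 7. The ranges of sham and hemorrhage libraries did not overlap, and those of day 3 and day 7 did. The log2 fold change was 1.75 ± 0.34 (edgeR adjusted p = 0.029) at day 3 and 1.72 ± 0.34 (edgeR adjusted p = 0.04) at day 7, a rise of 3.36-fold and 3.3-fold. These calls ended when any 1 of the 6 libraries was left out (edgeR adjusted p of 0.0767 to 0.285 at day 3 and 0.0697 to 0.405 at day 7), while the log2 fold change stayed between 1.67 and 1.88 and between 1.60 and 1.85. The summed microglial markers, 43141 to 53498 CPM in SPF sham and 22087 to 27192 CPM in SPF ICH day 3, moved the other way, and their part in the result was not tested. The calls also ended with the size factors of DESeq2 in the same test (adjusted p = 0.436 and 0.868).

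In ABX mice Ctsb stood at 5272, 5092 and 4421 CPM in sham, 16868, 15142 and 8863 at day 3 and 32426, 10813 and 19946 at day 7. Every hemorrhage library was above every sham, with a wide spread at day 7 that was narrower on total counts (15444, 9106 and 12833 CPM). The day 3 log2 fold change of 1.47 ± 0.33 did not pass (edgeR adjusted p = 0.118) with TMM over all genes but did with total-count scaling (1.42, adjusted p = 0.00203), and at day 7 it was 2.10 ± 0.34 (edgeR adjusted p = 0.00198). In GF mice the values were 12813, 4124 and 7616 CPM in sham, 16822, 14949.9 and 14671 at day 3 and 5100.3, 3316 and 5337 at day 7. With TMM the GF shams were spread over a wide range, the day 3 libraries lay together above them, and the day 7 libraries were the lowest of the hemorrhage groups, without overlap with day 3. On total counts the GF shams were closer together, at 6628, 4543 and 7929 CPM, and still below the day 3 libraries. The fall from day 3 to day 7 was -1.76 ± 0.34 (edgeR adjusted p = 0.00231) in log2 units, and GF day 7 differed from SPF day 7 by -1.81 ± 0.34 (edgeR adjusted p = 0.00287). Voom called neither of these 2 differences (adjusted p = 0.126 and 0.133) nor the ABX rise at day 7 (1.39, adjusted p = 0.0932).

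The response of Ctsb at day 7 thus differed between GF and SPF mice. The difference of the log2 responses was -2.56 ± 0.47 (edgeR adjusted p = 0.00312), with a value of -2.35 under total-count scaling and -2.33 with GC offsets, both past the threshold. It passed in each of 12 fits that left out 1 library, and limma voom did not call it (adjusted p = 0.257). The transcript of Ctsb has a GC content of 49.2%. Averaged over conditions, Ctsb rose by 1.38 ± 0.19 (edgeR adjusted p = 0.000151) at day 3 and 0.99 ± 0.19 (edgeR adjusted p = 0.00146) at day 7, and the first of these passed under every alternative that gave a value. The fit without the libraries of few detected genes is not counted here, since it kept only replicate 3 of GF sham. The day 7 average covers conditions that differed in sign. In GF mice alone Ctsb did not pass in day 7 against sham, and its value was -1.16 to -0.358 in 6 fits without 1 library, of which 1 passed. Between ABX and SPF mice the difference of responses at day 7 was 0.37 ± 0.46 (edgeR adjusted p = 0.762).

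Ctsl encodes cathepsin L, an endopeptidase that also processes other lysosomal enzymes. Its level was 1581, 1752 and 2406 CPM in SPF sham, 2957, 4808 and 2794 at day 3 and 7185, 3684 and 4517 at day 7. All hemorrhage libraries were above all shams, yet neither time point passed (0.88 ± 0.33 at day 3 and 1.42 ± 0.33 at day 7, edgeR adjusted p = 0.659 and 0.163). In ABX mice it was 1746, 1603 and 1438 CPM in sham, 3030.4, 4121 and 2564 at day 3 and 8361, 10026 and 8073 at day 7, 3 ranges that did not overlap. The day 7 rise over sham was 2.47 ± 0.34 (edgeR adjusted p = 0.000323) in log2 units and kept its call with total-count scaling (1.63) and with GC offsets (2.29). In GF mice it was 2703, 922 and 2013 CPM in sham, 3446, 3058 and 3019 at day 3 and 5079, 10015 and 6508 at day 7. The day 7 libraries were above the others, with a log2 fold change over sham of 1.94 ± 0.34 (edgeR adjusted p = 0.00076) which was 0.86 with GC offsets (adjusted p = 0.0742). Averaged over conditions, Ctsl rose by 0.89 ± 0.19 (edgeR adjusted p = 0.0164) at day 3 and 1.94 ± 0.19 (edgeR adjusted p = 6.93e-07) at day 7, and the second value passed under every alternative that gave one. The day 3 call ended without ABX sham replicate 3 or SPF sham replicate 1 or 2 (adjusted p of up to 0.0559). The excess of day 7 over day 3 was 1.45 ± 0.33 (edgeR adjusted p = 0.0384) in ABX, a call that ended without 5 of the 6 libraries (all but ABX ICH day 7 replicate 3; adjusted p of 0.0331 to 0.239) and with total-count scaling (0.64, adjusted p = 0.212) or GC offsets (1.10, adjusted p = 0.112). It was 1.18 ± 0.33 (edgeR adjusted p = 0.0196) in GF, a call that ended without GF ICH day 3 replicate 2 or 3 or GF ICH day 7 replicate 2 (0.0196 to 0.103), and the value was 0.71 with total counts (adjusted p = 0.102) and 0.01 with GC offsets (adjusted p = 1). The difference between the GF and SPF responses at day 7 was 0.52 ± 0.46 and did not pass (edgeR adjusted p = 0.529).

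Ctss encodes cathepsin S, which remains active at neutral pH and cleaves the invariant chain. It had the highest mean per kilobase of the members in each sham group, though in GF sham Ctsd had the higher mean CPM (29674 ± 20205 against 20909 ± 8313). The level of Ctss was 13021, 12521 and 20484 CPM in SPF sham, 12942, 13963 and 9285 at day 3 and 21054, 19320.2 and 20381 at day 7. Sham overlapped both hemorrhage groups, and day 7 lay above day 3, a difference of 0.75 ± 0.27 that did not pass (edgeR adjusted p = 0.971). In ABX mice the values were 17997, 19634 and 15895 CPM in sham, 12454, 11581 and 7891 at day 3 and 57849.5, 35282 and 38811 at day 7. Day 3 lay below sham and day 7 above it in every library, and day 7 exceeded day 3 by 2.05 ± 0.28 (edgeR adjusted p = 0.000735) and sham by 1.30 ± 0.27 (edgeR adjusted p = 0.0182). Under total-count scaling the first difference was 1.15 and passed, and the second was 0.37 and did not (adjusted p = 0.259). The ABX day 7 libraries were then at 27553, 29714 and 24970.5 CPM. In GF mice it was 28396, 11963 and 22368 CPM in sham, 18274, 11241 and 14054 at day 3 and 32893, 44204 and 29733 at day 7. Day 7 was again the highest group, above day 3 by 1.29 ± 0.27 (edgeR adjusted p = 0.00394), and with GC offsets the difference was 0.44 and did not pass (adjusted p = 0.289). Averaged over conditions, day 7 exceeded day 3 by 1.36 ± 0.16 (edgeR adjusted p = 1.55e-05), and this passed under every alternative that gave a value. The ABX call against sham ended without ABX ICH day 7 replicate 1 or any ABX sham library (adjusted p of 0.017 to 0.146).

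Among the exopeptidases, Ctsc encodes dipeptidyl peptidase I, which removes N-terminal dipeptides and activates the serine proteases of neutrophil and lymphocyte granules. It stood at 629, 1411 and 1269 CPM in SPF sham, 1991, 2491 and 1574 at day 3 and 2100.2, 1694 and 1332 at day 7, and neither time point passed (0.87 ± 0.38 and 0.63 ± 0.38). In ABX mice it was 1522, 1351 and 1024 CPM in sham, 2047, 1745 and 1121 at day 3 and 7284, 3142 and 2977 at day 7. The day 7 libraries were above both other groups (1.78 ± 0.39, edgeR adjusted p = 0.0221 against sham, 0.79 and not past the threshold with total-count scaling), replicate 1 was the highest, and the call ended without it or any ABX sham library (adjusted p of 0.0143 to 0.199). The monocyte markers also spread widely in that group. In GF mice the values were 353, 689 and 839.7 CPM in sham, 1093, 1351 and 1062 at day 3 and 2781, 4582 and 3072 at day 7. The 3 groups did not overlap, and day 7 exceeded sham by 2.47 ± 0.40 (edgeR adjusted p = 0.000404), with 2.19 under total-count scaling and 1.24 with GC offsets, both past the threshold. Its excess of day 7 over day 3 in GF mice, 1.57 ± 0.38 (edgeR adjusted p = 0.00933), was 1.10 with total counts (adjusted p = 0.0562) and 0.24 with GC offsets (adjusted p = 0.707). Averaged over conditions, Ctsc rose by 1.63 ± 0.22 (edgeR adjusted p = 4.76e-05) from sham to day 7, and this passed under every alternative that gave a value. The neutrophil and monocyte markers given above also had their highest medians in GF ICH day 7, and their part in the level of Ctsc was not tested.

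Ctsz encodes the carboxypeptidase cathepsin Z. It was at 2260.4, 2067 and 1433 CPM in SPF sham, 5554, 3968 and 6262 at day 3 and 2542, 4078 and 4907 at day 7, with both hemorrhage groups above sham. In ABX mice it was 2301, 2338 and 1938 CPM in sham, 6336, 4394 and 5151 at day 3 and 6595, 1297 and 3100.2 at day 7, the last on both sides of sham. In GF mice it was 5387, 2321 and 4323 CPM in sham, 6815, 5233 and 6442 at day 3 and 1131, 1625 and 1679.5 at day 7, with day 7 below every other GF library. The fall from GF sham ended without GF ICH day 7 replicate 1 or GF sham replicate 1 (adjusted p of 0.00891 to 0.0759), and with GC offsets Ctsz was higher than in GF sham, by 1.06 (adjusted p = 0.0298). The offsets left a positive correlation of change with GC content in that comparison, as given below. Averaged over conditions the day 3 rise was 1.12 ± 0.23 (edgeR adjusted p = 0.0111). It passed in each of 18 fits that left out 1 library and ended with the size factors of DESeq2 (adjusted p = 0.111). Ctsh, an aminopeptidase, ranged from 1069 to 4895 CPM over all libraries and passed in no comparison by edgeR with TMM, with the highest values in ABX ICH day 7 (4895, 1906 and 3710.4 CPM; 1.30 ± 0.35 against sham, edgeR adjusted p = 0.0756). DESeq2 called that difference (adjusted p = 0.0392), and GC offsets called it (1.49, adjusted p = 0.0221) and 4 others as higher, among them GF day 7 against day 3 (1.33, adjusted p = 0.0136). Ctsf, a cysteine protease of low level, passed in none by edgeR, DESeq2, voom or with GC offsets. It ranged from 2.07 CPM in GF ICH day 7 replicate 2 to 555 CPM in replicate 3 of the same group.

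Ctsd encodes cathepsin D, the main aspartic protease of the lysosome, whose loss causes a neuronal storage disease. Its level was 8567, 10579.5 and 3959 CPM in SPF sham, 27638, 22149.9 and 30379 at day 3 and 10581, 17970.0 and 22740.0 at day 7. Day 3 lay well above sham and day 7 began just above its highest library, with 1.79 ± 0.49 and 1.15 ± 0.49 in log2 units (edgeR adjusted p = 0.431 and 0.897). In ABX mice it was 8449.5, 9294 and 7319.9 CPM in sham, 32250.4, 14420.2 and 18162 at day 3 and 24874, 4968 and 11114 at day 7, the last of which spanned the sham range. In GF mice it was 51754, 12108 and 25160.3 CPM in sham, 38882, 21841 and 38818 at day 3 and 7739, 4470.4 and 6188 at day 7. GF sham overlapped GF day 3 in level, with either TMM or total counts (on the latter scale, 26772, 13339 and 26194 CPM in sham and 40223, 25828 and 41671 at day 3), and GF day 7 was below every other GF library. GF sham exceeded SPF sham by 1.95 ± 0.50 without passing in edgeR (adjusted p = 0.671), whereas DESeq2 called it (adjusted p = 0.0243). Averaged over conditions the day 3 rise was 1.11 ± 0.28 (edgeR adjusted p = 0.0461), and it ended without any 1 of 17 of the 18 libraries, all but GF sham replicate 1 (adjusted p of 0.0126 to 0.119).

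Ctsa encodes cathepsin A, a carboxypeptidase that also shields neuraminidase 1 and beta-galactosidase from degradation. It was at 1513, 1649 and 798 CPM in SPF sham, 2666, 2712 and 2837 at day 3 and 1906, 3154 and 2752 at day 7. All SPF hemorrhage libraries were above the shams, with 1.05 ± 0.46 and 0.98 ± 0.46 in log2 units (edgeR adjusted p = 0.659 and 0.897). In ABX mice it was 1524, 1342 and 1354 CPM in sham, 3719.8, 1548 and 1938 at day 3 and 4374, 668 and 1474 at day 7, which overlapped sham. In GF mice it was 5086, 2361 and 2498 CPM in sham, 3784, 2970.2 and 3214 at day 3 and 517, 757 and 752 at day 7. On total counts the GF shams were at 2631, 2601 and 2600 CPM. The 3 GF day 7 libraries were the lowest of the GF libraries, and 2 of the genes that form a complex with its product were also measured: Glb1 was at 0.0842 to 0.696 CPM there against 149 to 181 CPM in SPF ICH day 7, and Neu1 at 0.253 to 43.4 against 12.5 to 80.8 CPM. The Glb1 levels are near 0 in the group with the lowest mean number of genes detected. Of the 2263 genes called between GF and SPF at ICH day 7, 2074 were lower in GF. Among the 278 of these with a mean of at least 100 CPM, as Ctsa has, 171 were higher in GF and 107 lower.

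Comparisons between conditions separated the family at day 7. In GF against SPF mice at ICH day 7, 1 of 10 members was higher, Ctss, and 4 were lower, Ctsb, Ctsz, Ctsd and Ctsa, where 12.9% of all genes and 16.8% of abundant genes passed. The log2 differences were -1.81 ± 0.34 for Ctsb, -1.95 ± 0.47 for Ctsa, -1.48 ± 0.49 for Ctsd and -1.38 ± 0.39 for Ctsz (edgeR adjusted p = 0.00287, 0.0114, 0.0476 and 0.0252), and no GF library of these 4 genes reached an SPF library. For Ctss it was 0.81 ± 0.27 (adjusted p = 0.0478), and that call ended under total-count scaling (0.37, adjusted p = 0.215) and without any 1 of the 6 libraries (0.0647 to 0.167). Leaving out libraries also ended those of Ctsd (without each but SPF ICH day 7 replicate 1; 0.037 to 0.154), Ctsz (without GF replicate 1 or 3 or SPF replicate 2 or 3; 0.0204 to 0.102) and Ctsa (without GF replicate 1; 0.0143 to 0.0503), and that of Ctsb in none of 6. The median over 9 members was 0.03, that over all genes -1.56 and that over abundant genes 0.56.

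The response to hemorrhage at day 7, ICH minus sham, was lower in GF than in SPF mice for Ctsa (-3.28 ± 0.66, edgeR adjusted p = 0.00604), Ctsd (-3.43 ± 0.70, edgeR adjusted p = 0.00612), Ctsb as given above and Ctsz (-2.44 ± 0.56, edgeR adjusted p = 0.0126), and higher for Ctsc (1.84 ± 0.54, edgeR adjusted p = 0.0399), against 7.04% of all genes and 9.9% of abundant genes. The call for Ctsc ended in 8 of 12 fits without 1 library (adjusted p of 0.0293 to 0.12), and that for Ctsz without SPF sham replicate 3 (0.00592 to 0.0607). The GF minus SPF responses share their groups with the comparisons above and are not separate evidence. In GF mice alone, day 7 was lower than sham, with log2 fold changes of -2.30 ± 0.48 for Ctsa, -2.27 ± 0.50 for Ctsd and -1.44 ± 0.40 for Ctsz, and lower than day 3, with -2.30 ± 0.48, -2.44 ± 0.50 and -2.06 ± 0.40. With GC offsets none of these 6 was lower past the threshold: against sham Ctsa was -0.03, Ctsd -0.09 and Ctsz, past it as higher, 1.06, and against day 3 they were 0.02, -0.19 and 0.41. Across abundant genes the offsets left a positive Spearman correlation with GC content, 0.237 against sham and 0.281 against day 3. Averaged over conditions, day 7 was lower than day 3 for Ctsd (-1.25 ± 0.28, edgeR adjusted p = 0.00487), Ctsz (-1.01 ± 0.23, edgeR adjusted p = 0.00462) and Ctsa (-0.84 ± 0.27, edgeR adjusted p = 0.031), and the last of these ended in 7 of 18 fits without 1 library (adjusted p of 0.00168 to 0.08). By edgeR with TMM, none of these 3 genes passed as lower in SPF or in ABX mice alone. The SPF value of Ctsa was -0.235 to 0.109 in fits without 1 library. The SPF response for Ctsd at day 7 rests on a sham group with 1 library at 3959 CPM. The GF sham group of Ctsd ran from 12108 to 51754 CPM with TMM and from 13339 to 26772 CPM on total counts.

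GC content moved with these results. The transcripts of Ctsz, Ctsd and Ctsa have 57.3%, 55.9% and 55.7% GC, and those of Ctsc, Ctsl and Ctss 43.9%, 44.7% and 45.9%. Across the abundant genes, the Spearman correlation of the log2 difference between GF and SPF at day 7 with GC content was -0.64, a description over genes, which are not replicates. With GC offsets in the fit, the differences between GF and SPF at day 7 became -0.12 for Ctsa, 0.26 for Ctsd and 0.50 for Ctsz, none past the threshold, while Ctsb kept its call at -1.61 (adjusted p = 0.0043). With the offsets a correlation of 0.289, of the opposite sign, remained in this comparison. Ctsh and Ctsf, at 51.2% and 56.4% GC, had differences of 0.03 ± 0.35 and 0.31 ± 1.06 without offsets.

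**Figure D3:**
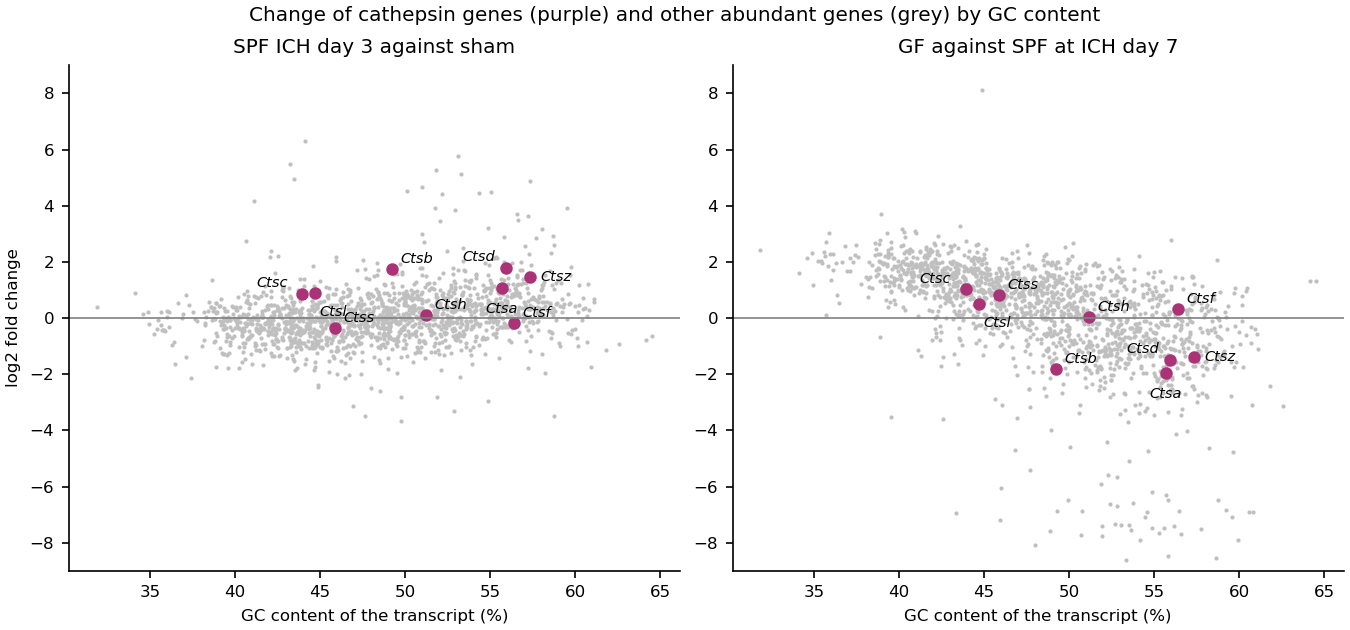
Log2 fold change of 9 cathepsin genes (purple, named) and the other genes with a mean of at least 100 CPM (grey) against the GC content of the transcript, for SPF ICH day 3 against sham (left) and GF against SPF at ICH day 7 (right). On the right the grey points run downwards with GC content and Ctsa, Ctsd, Ctsz, Ctsc, Ctsl and Ctss lie among them, and Ctsb is at 49.2% GC and -1.81.

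Scaling bears on the ABX values at day 7. Total-count scaling moved the fold change of the median gene by -0.84 log2 units in ABX ICH day 7 against sham, by -0.71 in ABX against SPF at day 7 and by -0.41 in GF against SPF at day 7, and by -0.07 in SPF ICH day 3 against sham. In ABX ICH day 7 against sham, Ctsb (1.08) and Ctsl (1.63) still passed. Ctsd, Ctsz and Ctsa, which did not pass, had values of 0.71 ± 0.48, 0.74 ± 0.39 and 0.63 ± 0.46 with TMM and of -0.37, -0.33 and -0.49 with total counts, so their direction depended on the scaling. In ABX day 7 against day 3, Ctsz (-1.57, adjusted p = 0.0142) and Ctsd (-1.70, adjusted p = 0.0348) passed as lower with total counts, where TMM gave -0.53 ± 0.39 and -0.66 ± 0.48 and no call. Ctss stayed higher there (1.15, adjusted p = 0.0134) and Ctsl no longer passed. The median over 9 members in ABX ICH day 7 against sham was 1.30 with TMM, beside -0.79 over all genes and 1.04 over abundant genes. In ABX against SPF mice at day 7 no member passed (edgeR; 0.0854% of all genes), with 2 called by DESeq2 (Ctsc and Ctss) and 3 by voom (Ctsc, Ctsl and Ctss). Below an unadjusted 0.05 were 4 members and 3415 of all 17573 genes.

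**Figure D4:**
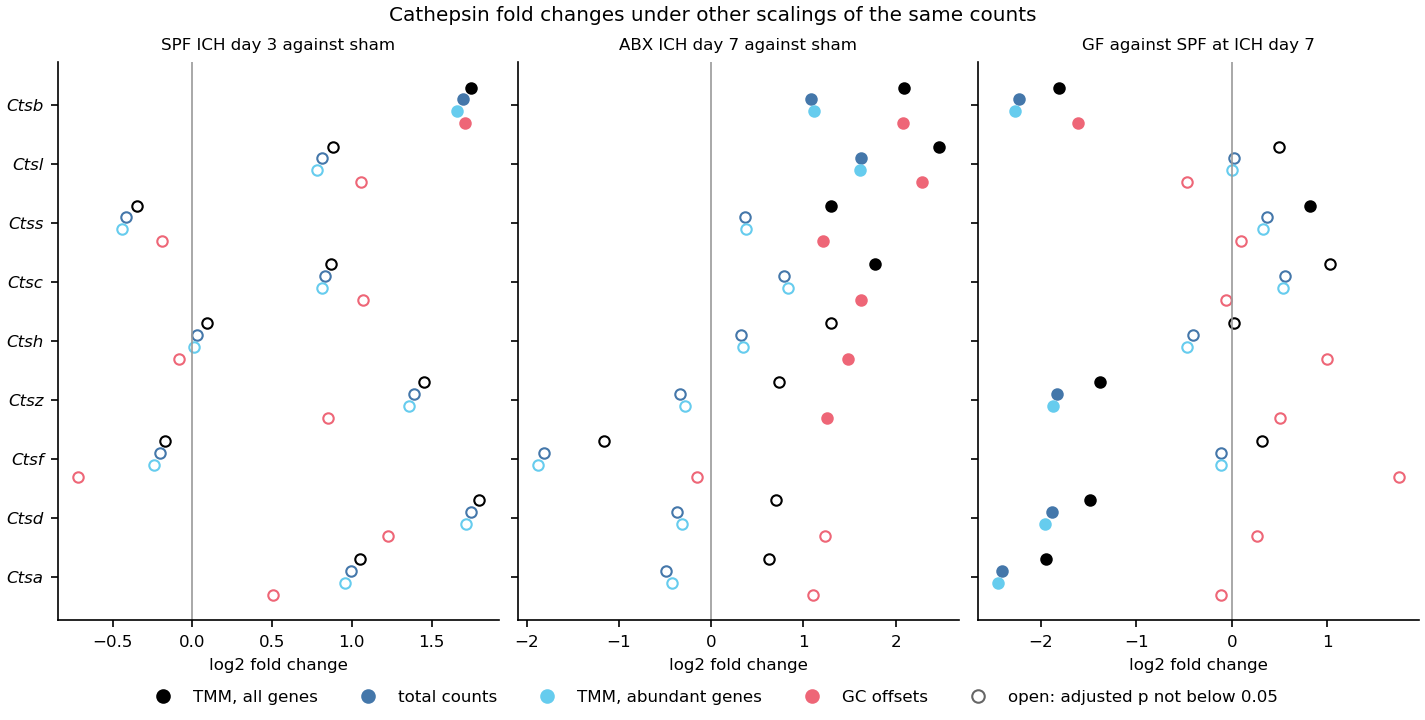
Log2 fold changes of 9 cathepsin genes in 3 comparisons under TMM over all genes (black), total counts (dark blue), TMM over abundant genes (light blue) and GC offsets (red), filled where the adjusted p is below 0.05. The values of Ctsb keep their sign and call in all 4 settings of each panel, and those of Ctsa, Ctsd and Ctsz in ABX ICH day 7 against sham stand on both sides of 0.

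Ratios of 2 members within a library do not depend on the scaling of libraries. Ratios and shares are not free of the shift with GC content, and its part in them was not tested. Ctsd and Ctss have 55.9% and 45.9% GC. The GC contrast averaged -0.01 in SPF sham and 0.64 in SPF ICH day 3, and 0.72 in GF sham and -2.15 in GF ICH day 7. The ratio of Ctsb to Ctsh per kilobase was 1.29, 1.33 and 0.713 in SPF sham, 3.02, 3.36 and 3.59 in SPF ICH day 3 and 3.09, 2.69 and 3.34 in SPF ICH day 7. It was 1.13, 1.17 and 1.27 in ABX sham, 3.12, 3.54 and 2.1 at day 3 and 2.26, 1.93 and 1.83 at day 7. In GF mice it was 1.28, 1.17 and 1.19 in sham, 3.2, 3.21 and 2.86 at day 3 and 0.79, 0.506 and 1.7 at day 7. Every SPF and ABX hemorrhage library had a higher ratio than every sham, and so did GF day 3, while 2 of 3 GF day 7 libraries lay below the GF shams and replicate 3 above them. The ratio of Ctsd to Ctss was 0.419, 0.538 and 0.123 in SPF sham and 1.36, 1.01 and 2.08 in SPF ICH day 3, without overlap. It was 1.16, 0.645 and 0.717 in GF sham and 0.15, 0.0644 and 0.133 in GF ICH day 7, again without overlap and in the opposite direction. By share of the summed CPM per kilobase, Ctss held 55.2% of the cathepsin transcripts in SPF sham, 26.6% at SPF day 3 and 69.4% in GF ICH day 7, as means of 3 libraries.

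**Figure D5:**
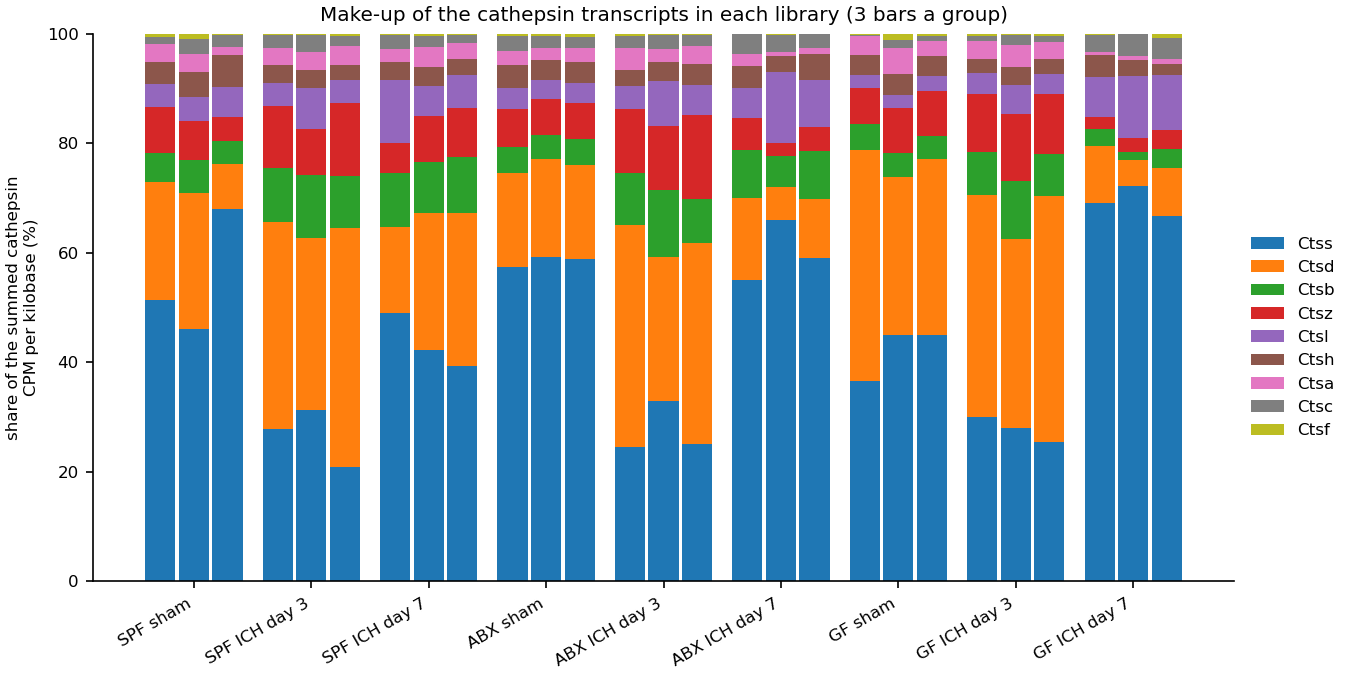
Share of each member in the summed cathepsin CPM per kilobase, one bar a library and 3 bars a group, in percent. Ctss (blue, lowest block) takes a smaller share, and Ctsd (orange) and Ctsb (green) a larger one, at day 3 than in the SPF and ABX shams, and in GF ICH day 7 Ctss fills most of each bar.

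In the other comparisons of conditions and states, by edgeR, no member passed in ABX against SPF in sham (0% of all genes) or at day 3 (0%), in the ABX minus SPF responses at day 3 (0%) and day 7 (0%), in GF against SPF in sham (0.00569%) or at day 3 (0%), or in the GF minus SPF response at day 3 (0%). Members with an unadjusted p below 0.05 numbered 0, 0, 0, 4, 5, 1 and 1 in that order. Of all 17573 genes, 712, 860, 980, 2236, 1093, 608 and 999 had such a p in the same order. DESeq2 and voom called no member in these comparisons apart from Ctsd in GF against SPF sham by DESeq2. None passed in SPF ICH day 7 against day 3 (0%; 1 member and 719 of all genes with an unadjusted p below 0.05, and no member by DESeq2 or voom). Averaged over the 3 states, none passed in ABX (0%) or GF (0.125%) against SPF, with 1 below an unadjusted 0.05 in each and none by DESeq2 or voom. Of all genes, 1884 (ABX) and 3809 (GF) were below an unadjusted 0.05 in these averages. These comparisons share SPF groups or shams with one another and with those above. A p that misses the threshold does not show equal levels.

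Genes that regulate the cathepsins were taken from lists. Of 10 inhibitors of cysteine or serine proteases 5 were tested. In SPF ICH day 3 against sham 1 was higher and 1 lower, where 0.102% of all genes passed. Cst7, cystatin F, which restrains cathepsins C and L in the endolysosome, rose from 6.22 ± 5 to 145 ± 43.7 CPM, a log2 fold change of 4.54 ± 0.80 (edgeR adjusted p = 0.0125), and Cst3, cystatin C, a secreted inhibitor, was 29179 ± 2710.0 CPM in sham and 8451 ± 1105 CPM at day 3, a change of -1.79 ± 0.26 (edgeR adjusted p = 0.00155). The same 2 genes passed in ABX ICH day 3 against sham (background 0.125%), Cst7 with 4.03 ± 0.78 (edgeR adjusted p = 0.029) and Cst3 with -1.86 ± 0.26 (edgeR adjusted p = 0.00171). In ABX ICH day 7 against sham (background 0.945%) 2 of 5 were higher, Cst7 by 6.70 ± 0.89 (edgeR adjusted p = 0.000215) and Cstb, the cytosolic cystatin B, by 2.85 ± 0.57 (edgeR adjusted p = 0.0111). In GF ICH day 7 against sham (background 14.4%) it was Cst7 alone, by 4.26 ± 0.79 (edgeR adjusted p = 0.00132). Of 12 other cathepsin genes 3 were tested. Averaged over conditions, Ctso was lower at day 3 than in sham (-1.27 ± 0.32, edgeR adjusted p = 0.0455) and higher at day 7 than at day 3 (1.73 ± 0.32, edgeR adjusted p = 0.00137), and Ctse, at 0 to 0.572 CPM in SPF sham and 0.884 to 8.49 CPM in SPF ICH day 3, and at 0 in every ABX sham library and 0.375 to 6.24 CPM in ABX ICH day 3, was higher at day 3 than in sham (edgeR adjusted p = 0.045). Ctsw ranged from 0 to 14.5 CPM.

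In GF against SPF at ICH day 7, 12.9% of all tested genes and 16.8% of the abundant genes passed, with 2074 of the 2263 called genes lower in GF. Of the 278 abundant genes called, 171 were higher in GF and 107 lower. Of 7 other lysosomal proteases, all tested, 3 passed as lower in the GF mice when GF and SPF were compared at ICH day 7: Lgmn, the asparaginyl endopeptidase legumain that cleaves cathepsin proforms, at 3029 ± 807 against 6852 ± 1361 CPM (-1.18 ± 0.32, edgeR adjusted p = 0.0189), Tpp1, a tripeptidyl peptidase, at 0.779 to 43.7 against 279 to 487 CPM, and Dpp7, a dipeptidyl peptidase, at 0.105 to 0.677 against 122 to 139.9 CPM. The GF levels of Dpp7 and the lowest of Tpp1 are near 0, in the group with the lowest mean number of genes detected. With GC offsets the value of Lgmn was -0.03. Of 8 partners and substrates, 3 were lower in the same comparison, Galns, Glb1 and Grn. Grn, which encodes progranulin, a lysosomal protein that cathepsins process, was at 335 ± 112 against 2070.3 ± 678 CPM (-2.63 ± 0.52, edgeR adjusted p = 0.00393), and with GC offsets -0.87. Psap, the saposin precursor cleaved by cathepsin D, did not pass there but did in the GF minus SPF response at day 7 (-3.06 ± 0.73, edgeR adjusted p = 0.0161; with GC offsets -0.84). Cd74, the invariant chain, rose in ABX ICH day 7 against sham, from 44.1 ± 5.93 to 1470.0 ± 890.2 CPM (5.06 ± 0.93, edgeR adjusted p = 0.00597), and averaged over conditions at day 3 by 3.55 ± 0.50 (edgeR adjusted p = 0.000153). The summed level of 6 dendritic cell markers was 1.8 to 10.7 CPM in ABX sham and 4.88 to 411 CPM in ABX ICH day 7 (Clec9a at 0 in sham, Clec9a and Xcr1 at 0 in day 7), and its part in the rise of Cd74 was not tested.

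Of 4 lysosomal transcription factors, 3 also passed as lower in GF at day 7, against the same 12.9% of all genes and 16.8% of abundant genes. The counts of sorting and proton pump genes below are of the same comparison and are read against the same shares. Tfeb was at 0 to 0.0631 CPM in GF against 0.152 to 13.8 in SPF, Tfe3 at 0 to 0.15 against 18.2 to 27.5 and Mitf at 0 to 0.113 against 20.1 to 38.6 CPM. The GF levels of these 3 are near 0, in the group with the lowest mean number of genes detected, so no fold change is given. Of 12 genes of sorting to the lysosome, 1 was higher, the retromer subunit Vps35 (1288 ± 197 against 171 ± 44.6 CPM; 2.92 ± 0.51, edgeR adjusted p = 0.00158, and with GC offsets 1.58), and 3 were lower, Gga2, Gnptab and Nagpa. Nagpa, which uncovers the mannose 6-phosphate tag, stood at 0.168 to 0.376 against 47 to 95.6 CPM, again near 0 in GF. Of 13 tested genes of the proton pump, 4 were higher (Atp6ap2, Atp6v1c1, Atp6v1d and Atp6v1g1) and 2 lower (Atp6v0c and Atp6v0a1). Atp6ap2 differed by 1.92 ± 0.49 (edgeR adjusted p = 0.0148), and with GC offsets by 0.28.

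Among all pairs of members, the 9 group means of log2 CPM, each centred on its own mean, were closest for Ctsd and Ctsz (root mean square difference 0.269 log2 units), Ctsa and Ctsz (0.284) and Ctsa and Ctsd (0.294). Ctsc and Ctsl followed at 0.381 and Ctsh and Ctss at 0.468. Among 7339 other genes with a mean of at least 10 CPM, those nearest to Ctsb were H2-K1, Akr1a1 and Shisa5 (0.289 to 0.386). Nearest to Ctsd were Eno1, Gusb and Arpc1b (0.282 to 0.298), and to Ctsz Gusb, Ap2m1 and C5ar1 (0.192 to 0.228). Nearest to Ctss were Hnrnpk, Leprot and Zfand6 (0.16 to 0.192), and to Ctsl Psme2, C3ar1 and Arpc5 (0.289 to 0.305). These are likenesses over 9 group means of 3 libraries, which share their scaling, and carry no test.

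The members lie at separate places in the genome (GRCm38, GENCODE M21), except that Ctsk (chr3:95499256-95509362) and Ctss (chr3:95526786-95556403) are neighbours 17423 bases apart. Ctsb (chr14:63122462-63145923), Ctsa (chr2:164832873-164841032) and Ctsz (chr2:174427493-174439039) overlap genes of the opposite strand, Fdft1, Pltp with Neurl2, and Nelfcd. Ctsd (chr7:142375911-142388038) shares its strand with the overlapping gene model Gm49369, Ctsl (chr13:64359337-64370890) overlaps an antisense gene and a processed pseudogene, Ctss holds the processed pseudogene Hmgb1-ps5, and Ctsc (chr7:88278085-88310888) overlaps a non-coding RNA of the other strand. Whether counting used the strand is not given in the sources used here, so reads shared with these neighbours cannot be told apart. No gene overlaps Ctsh (chr9:90054152-90076089), Ctsf (chr19:4855130-4860918) or Ctsk.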

How the data were processed

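Low-input RNA libraries (SMART-Seq v4, sequenced in pairs on a NovaSeq) of sorted microglia gave 1 deposited table of read counts per gene for 27 libraries, in 9 groups of 3. Per the submitters' processing notes, cutadapt 1.9, HISAT2 2.0.4, StringTie 1.3.4d and edgeR were used with the mm10 genome, and the strand setting and the annotation release are not given in the sources used here. The table held whole counts per Ensembl gene, as deposited by the authors. Symbols, coordinates and transcript GC content came from GENCODE M21, which named 52073 genes and left 4618 without a symbol (1.27% of counts).

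Genes were kept by filterByExpr, which left 17573 genes with 99.9% of counts and set 39118 aside. Libraries held 41664864 to 79090595 counts, and TMM factors ran from 0.476 to 1.31. Each comparison was a contrast of group means in 1 fit over all 9 groups (edgeR 4.0.16, quasi-likelihood test, robust, 24 comparisons), with Benjamini-Hochberg adjustment over all genes tested and a threshold of 0.05. The common biological coefficient of variation was 1.54. Log2 CPM used a prior count of 2. Levels per kilobase used the length of 1 transcript per gene. The fit was run on simulated counts with known changes at day 3 and no GC shift between libraries. It was read only in the day 3 average over conditions, so it does not bear on the day 7 comparisons.

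The members and lists were chosen with earlier results of these data known. Named genes were all 10 members, from each list up to 4 genes by their lowest adjusted p in any of the 5 averages, and a set of named inhibitors, partners and relatives. Where a count of 5 or fewer is given, other genes are named too, chosen after their values were seen. Likeness used the smallest root mean square difference of centred group means, for genes averaging 10 CPM or more. Promoters came from RefSeq (GRCm38.p6).

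The alternatives were DESeq2 1.42.0, voom of limma 3.58.1 with weights for library quality, edgeR with the size factors of DESeq2, the fit of all genes without a filter, one with the replicate number as a block, leaving out the 7 libraries with under 12000 detected genes, GC offsets (a spline with 6 degrees of freedom over abundant genes, those averaging 100 CPM or more; 96% of tested genes had a GC content) and leaving out each library. Scaling by total counts and TMM over the abundant genes were added after seeing the data. R 4.3.3 and Python 3.11.15 were used. Libraries of a group differed by more than counting error, which technical repeats prepared separately may also do, and each was counted as 1 sample.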

Additional observations from a re-analysis of the deposited data

Results flagged for a closer look

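The response of 5 members to hemorrhage at day 7 (ICH minus sham) differed between GF and SPF mice by edgeR's test of the difference itself, adjusted over all genes. In log2 units the GF minus SPF difference was -3.28 ± 0.66 for Ctsa (adjusted p = 0.00604), -3.43 ± 0.70 for Ctsd (0.00612), -2.56 ± 0.47 for Ctsb (0.00312) and -2.44 ± 0.56 for Ctsz (0.0126), and 1.84 ± 0.54 for Ctsc (0.0399). The same test passed for 7.04% of all genes. With GC offsets, Ctsb was -2.33 (adjusted p = 0.00698) and passed, while Ctsa (-0.77), Ctsd (-0.96), Ctsz (0.36) and Ctsc (0.56) did not. The offsets left a positive correlation of 0.244 with GC content across abundant genes. Limma voom did not call the Ctsb difference, and the Ctsc difference passed in only 4 of 12 fits without 1 library. The GF ICH day 7 libraries also had the lowest mean number of genes detected of the 9 groups and the highest median of neutrophil markers, and the part of these in the differences was not tested.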

How the results depend on the processing

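Of 44 calls on single members, 41 were kept by DESeq2, 39 with no filter on low counts, 36 with total-count scaling, 36 with TMM over abundant genes, 31 with DESeq2 size factors in edgeR, 28 by voom, 28 in every fit without 1 library, and 19 with GC offsets. The fit without the libraries under 12000 detected genes kept only replicate 3 of ABX ICH day 7 and only replicate 3 of GF sham. Comparisons with these groups then rest on 1 library, so no number of calls kept is given. Those that need GF ICH day 7 gave no value. Ctsk had counts in 4 of 27 libraries.

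The larger moves in the number of members called were these. The share of all genes called under each alternative is not given here. These counts therefore show only how the calls on members moved, not whether members moved more than other genes. In SPF ICH day 3 against sham (1) it was 2 by voom, 0 with DESeq2 size factors, 3 without the low libraries and 0 to 0 without single libraries. In SPF ICH day 7 against sham (1) it was 2 by DESeq2, 0 with its size factors, 2 without the low libraries and 0 to 0 without single libraries. In ABX ICH day 3 against sham (0) it was 2 by voom, 2 without the low libraries, and 1 with each added scaling. In ABX ICH day 7 against sham (4) it was 5 by DESeq2, 3 by voom, 2 with DESeq2 size factors and each added scaling, and 2 to 5 without single libraries. In ABX ICH day 7 against day 3 (2) it was 3 by DESeq2, by voom and with total counts, 1 with DESeq2 size factors and without the filter, and 1 to 3 without single libraries. In GF ICH day 3 against sham (0) it was 1 with each added scaling. In GF ICH day 7 against sham (5) it was 2 by voom and 2 with GC offsets, and in GF ICH day 7 against day 3 (7) it was 5 by voom and 2 with GC offsets. In ABX against SPF at ICH day 7 (0) it was 2 by DESeq2, 3 by voom and 0 to 2 without single libraries. In GF against SPF in sham (0) it was 1 by DESeq2. In GF against SPF at ICH day 7 (5) it was 3 with DESeq2 size factors, 1 with GC offsets and 1 to 4 without single libraries. In the GF minus SPF response at day 7 (5) it was 2 by voom, 1 with GC offsets and 3 to 5 without single libraries. Averaged over conditions it was 6 by voom, 1 with DESeq2 size factors and 2 to 4 without single libraries at day 3 (4), 7 with GC offsets at day 7 against sham (4), and 2 with GC offsets at day 7 against day 3 (6). In the mean of GF against SPF (0) it was 1 with each added scaling.

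Among the calls on single members, 8 reversed in direction with GC offsets, and none did under another alternative. In GF ICH day 7 Ctsz was 1.06 against sham (adjusted p = 0.0298). Against day 3 Ctsa was 0.024 and Ctsz 0.41. In GF against SPF at day 7 Ctsd was 0.26 and Ctsz 0.50. In the difference of responses Ctsz was 0.36. Averaged over conditions at day 7, against day 3 Ctsa was 0.36 and Ctsz 0.26. Ctsd, at -0.14 and not called in the average of day 7 against sham, was 0.68 (adjusted p = 0.0293) with GC offsets. Across abundant genes, the Spearman correlation with GC content in these comparisons was negative without offsets and positive with them. It was then 0.237 in GF ICH day 7 against sham and 0.281 against day 3. In GF against SPF at day 7 it was 0.289, and in the difference of responses 0.244. In the averages it was 0.183 for day 7 against day 3 and 0.162 for day 7 against sham. The cause of the reversals was not tested.

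Replicate numbers did not pair the libraries: deviations of the same number in 2 groups correlated from -0.551 to 0.386 (median 0.00576), with 19 of 108 over 0.1. With the replicate block 42 of 44 calls were kept, and in ABX ICH day 7 against day 3 the count of members called was 1.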

Other observations

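Ctsf was low in ABX ICH day 7 replicate 1 and in GF ICH day 7 replicate 2. It was at 3.13, 167 and 106 CPM in ABX ICH day 7 and 145, 2.07 and 555 CPM in GF ICH day 7, against 224, 375 and 87.7 CPM in SPF sham. The genes detected numbered 10184, 10997 and 14221 in ABX ICH day 7. They numbered 9489, 11043 and 9185 in GF ICH day 7, where the library lowest in Ctsf had the most. Neu1, which encodes the neuraminidase that cathepsin A protects, ran from 5.12 to 474 CPM in ABX ICH day 7 and from 12.5 to 80.8 CPM in SPF ICH day 7. Napsa, an aspartic protease related to cathepsin D, was at 0 to 0.279 CPM in SPF sham and 4.88 to 42.8 CPM in SPF ICH day 3, and averaged over conditions it was higher at day 3 than in sham (edgeR adjusted p = 0.0369). The ratio of Ctsd to Ctsz per kilobase was 2.49, 2.69 and 2.56 in ABX sham and 2.56, 2.59 and 2.43 in ABX ICH day 7, although the level of each gene spread widely in the second group.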
